A study of Mus musculus with 12 samples.

Results

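Described here are 4 isoforms of the 5-Ht2c receptor mRNA (gene Htr2c), the unedited isoform and the isoforms edited only at site C, only at site D, or at both C and D. They are the 4 of 112 deposited isoforms unedited at sites A, B and E and at 6 minor positions, a definition by editing pattern. They form a complete 2 by 2 set of the sites C and D, and were chosen with earlier results of these data known. The study amplified and sequenced the receptor mRNA from choroid plexus, in whose epithelial cells it is abundant, of male mice at postnatal day 21. LoxP mice (PWScrp-/m5'LoxP) carry a 5' HPRT-LoxP-Neo cassette upstream of the Snord116 and Snord115 gene clusters on the maternal allele and a deletion of the Snord116 cluster on the paternal allele. In contrast to wild type (WT) choroid plexus, theirs expresses Snord115 and, besides it, Snord116. The effects of both snoRNAs, of the deletion and of the cassette cannot be told apart in this design. There were 6 libraries of LoxP and 6 of WT, each from the pooled choroid plexuses of 2 mice, on a background that the labels of both genotypes give as a hybrid of 129SV and C57BL6/J, mostly C57BL6/J, and the study's text as C57Bl/6J. The deposited table holds 1 mean per isoform and genotype. It holds no value per library, no SD and no read counts, so the reads behind each isoform's mean are unknown (mapped reads per library stand in the study's supplement and were not used here). From these means, no difference between genotypes could be compared with the spread between libraries, and no test was made. The authors' own p-values, from t-tests over the libraries, were not used. Neither Snord115 nor any marker gene of the choroid plexus was measured in these amplicon libraries.

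The 5-Ht2c receptor binds serotonin and signals through G proteins. Its pre-mRNA is edited by ADAR enzymes, which deaminate adenosine to inosine within a duplex of exon Vb and the intron downstream, and inosine is read as G in cDNA. The sites lie in the codons of the second intracellular loop of the receptor, and the unedited form is known for the strongest coupling to G proteins. ADAR2 is the main enzyme of site D, ADAR1 that of sites A and B, and both enzymes have been linked to site C. Snord115 is a C/D box small nucleolar RNA whose antisense element is complementary to the stretch of exon Vb that holds the sites E, C and D, whereas A and B lie outside it. The comparison asks whether editing of this stretch differs where the snoRNA is present together with its putative target.

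Htr2c (ENSMUSG00000041380.13) extends from 146962513 to 147197277 on the + strand of chromosome X in GRCm38, and the 30 nt in which editing was followed lie at chrX:147169678-147169707, in coding sequence. The 4 deposited sequences are shown because they differ only at sites C and D, which stand in capitals at positions 16 and 21 counted from the 5′ end of the 30 nt.
NoEdit: atgtagcaatacgtaAtcctAttgagcata
C: atgtagcaatacgtaGtcctAttgagcata
D: atgtagcaatacgtaAtcctGttgagcata
CD: atgtagcaatacgtaGtcctGttgagcata
Site C, at 147169693, is the second base of codon 159, which reads AAT for asparagine when unedited and AGT for serine when edited. Site D, at 147169698, is the first base of codon 161, which reads ATT for isoleucine when unedited and GTT for valine when edited. The sites are 5 nt apart, and each lies next to a T on its 3′ side, site C in the triplet aAt and site D in tAt. The 4 isoforms thus encode receptors with asparagine and isoleucine (unedited), serine and isoleucine (C), asparagine and valine (D) or serine and valine (CD) at these codons, with isoleucine kept at codon 157, which holds the sites A and B. The sequence around the sites is that of exon Vb, the 95 nt at chrX:147169676-147169770 that the truncated splice variant lacks, shown here unedited from the GENCODE M21 transcript with sites C and D in capitals.
Exon Vb: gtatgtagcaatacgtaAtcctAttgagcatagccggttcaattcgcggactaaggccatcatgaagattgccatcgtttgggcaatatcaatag
The first bases of this exon are those of the alternative 5′ splice site, and the editing sites follow within the first part of the exon.

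The unedited isoform and isoforms D, CD and C were the 4 most abundant of the 112 isoforms in both genotypes, in the order D, unedited, CD and C. Values are RPKM (reads of the isoform, scaled to the length of its cDNA and to the mapped reads of the library), averaged over the libraries of a genotype by the authors. Isoform D averaged 565160 RPKM in LoxP and 615327 RPKM in WT. The unedited isoform averaged 487075 RPKM in LoxP and 451847 RPKM in WT. CD averaged 104482 RPKM in LoxP and 126959 RPKM in WT. D and CD, both edited at D, were thus lower in LoxP, and the unedited isoform was higher. C, with site D unedited, averaged 54346 RPKM in LoxP and 53465 RPKM in WT, and its LoxP over WT ratio of 1.02 was the nearest to 1 of the 4 ratios of RPKM. The other ratios were 1.08 for the unedited isoform, 0.918 for D and 0.823 for CD.

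Summed over all isoforms, RPKM was 1371582 in LoxP and 1460612 in WT, a LoxP over WT ratio of 0.939, so shares of this sum are used from here on unless RPKM is named. The mapped reads that scale RPKM include those of the truncated splice variant, so the sum does not measure the amount of receptor mRNA. The shares refer to the 112 isoforms only, which need not cover all full-length reads. The 4 isoforms together held 88.3% of the sum in LoxP and 85.4% in WT, a difference of 2.88 percentage points. Isoform D held 41.2% in LoxP and 42.1% in WT, and the unedited isoform 35.5% in LoxP and 30.9% in WT. CD held 7.62% in LoxP and 8.69% in WT, and C 3.96% in LoxP and 3.66% in WT. By share, the LoxP over WT ratio was 1.15 for the unedited isoform, 1.08 for C, 0.978 for D and 0.876 for CD, so that the 2 isoforms unedited at D were above 1 and the 2 edited at D below 1. The side of 1 was the same in RPKM. For D it depends on the denominator, since as a share of the edited isoforms only, D was higher in LoxP, with 63.9% against 61.0% in WT.

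**Figure D1:**
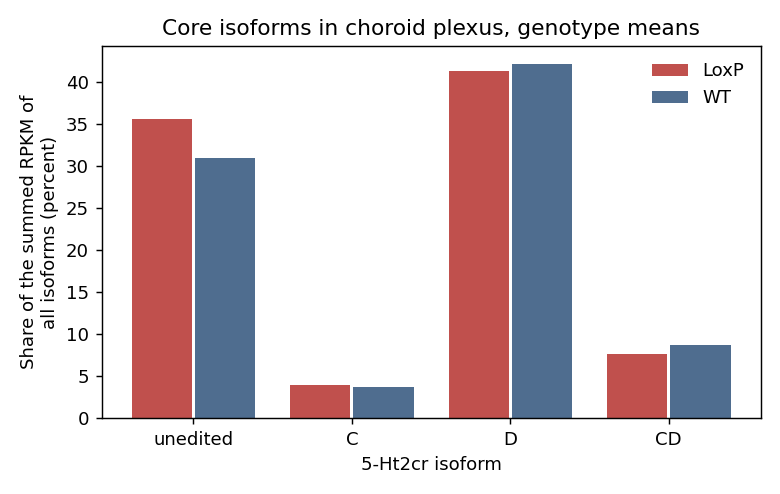
Share of each core isoform in the summed RPKM of all 112 isoforms, in percent, for LoxP and WT (bars are computed from 1 deposited genotype mean each, so there are no error bars). The unedited isoform stands at 35.5% in LoxP and 30.9% in WT, and D is the tallest pair at 41.2% in LoxP and 42.1% in WT.

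None of the 4 isoforms was past a fold of 1.2 between genotypes by share. Of all 112 isoforms, 20.5% were past this fold with a higher share in LoxP and 42.9% with a lower share in LoxP. In RPKM, CD alone of the 4 was past the fold, in the lower direction, as were 49.1% of all isoforms, while 19.6% were past it in the higher direction. The median LoxP over WT ratio of the share was 1.03 over the 4 isoforms, with a range from 0.876 to 1.15, and 0.911 over all 112. The other 26 isoforms without a minor site had a median of 0.686 and ranged from 0.00674 to 1.68, and 23 of them were below 1. The 82 isoforms with a minor site had a median of 0.958. The other isoforms are also rarer than the 4, and the part of abundance in their wider range was not tested. Isoforms were deposited if their mean reached 10 RPKM in either genotype, so a rare isoform could enter through its higher mean alone. This filter can favour large ratios among rare isoforms, in both directions. Examples are AEH, at 0.575 RPKM in LoxP and 14.2 RPKM in WT, and ACH, at 92.2 RPKM in LoxP and 4.98 RPKM in WT. The counts past the fold and the ranges thus do not alone show the 4 as more stable.

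The difference between the genotype means lay partly in the 4 isoforms. LoxP minus WT was 35228 RPKM for the unedited isoform, 881 RPKM for C, -22477 RPKM for CD and -50167 RPKM for D, which sums to -36536 RPKM. The other isoforms without a minor site, all edited at A, B or E, summed to -50760 RPKM, and the isoforms with a minor site to -1734 RPKM. In RPKM, the difference of the unedited isoform was thus smaller in size than that of D alone. By share the order was the opposite, with LoxP minus WT at 4.58 percentage points for the unedited isoform, -0.923 points for D, -1.07 points for CD and 0.302 points for C. As a group, isoforms edited at A, B or E without a minor site held 10.7% of the sum in LoxP and 13.5% in WT.

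**Figure D2:**
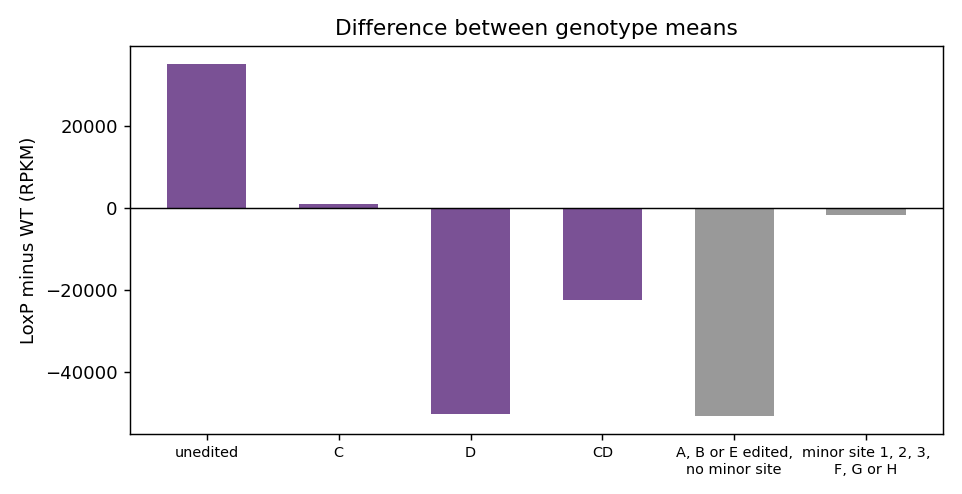
LoxP minus WT difference of the deposited means, in RPKM, for the 4 core isoforms (purple), the summed isoforms with A, B or E edited and the summed isoforms with a minor site (grey). The unedited isoform is the main positive bar, at 35228 RPKM, and D and the A, B or E group are the longest negative bars, at -50167 and -50760 RPKM.

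The 4 isoforms carried most of the editing at their own sites. Over the 65 isoforms edited at D, the summed RPKM was 781994 in LoxP and 904003 in WT, of which D and CD supplied 85.6% in LoxP and 82.1% in WT. The LoxP minus WT difference of this sum was -122009 RPKM, and D and CD accounted for 59.5% of it. By share, the difference at site D was -4.88 percentage points, and D and CD accounted for 41.0% of it. Over the 46 isoforms edited at C, the sum was 190915 RPKM in LoxP and 234605 RPKM in WT, of which C and CD supplied 83.2% in LoxP and 76.9% in WT. The difference at site C was -43690 RPKM, and C and CD together accounted for 49.4% of it, with CD lower and C slightly higher in LoxP. By share they accounted for 36.1% of a difference of -2.14 points at site C. The rest lay in isoforms that are also edited elsewhere.

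Within the 2 by 2 set, 55.3% of the RPKM carried editing at D in LoxP and 59.5% in WT, and 13.1% carried editing at C in LoxP and 14.5% in WT. Molecules edited at 1 of the sites were more often edited at the other in both genotypes. Site C was edited in 15.6% of the D-edited RPKM in LoxP and in 17.1% in WT. Where D was unedited, C was edited in 10.0% in LoxP and in 10.6% in WT. Site D in turn was edited in 65.8% of the C-edited RPKM in LoxP and in 70.4% in WT, and with C unedited in 53.7% in LoxP and in 57.7% in WT. All 4 of these conditional levels were lower in LoxP. They are computed from the same 4 means of each genotype and are not separate observations.

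**Figure D3:**
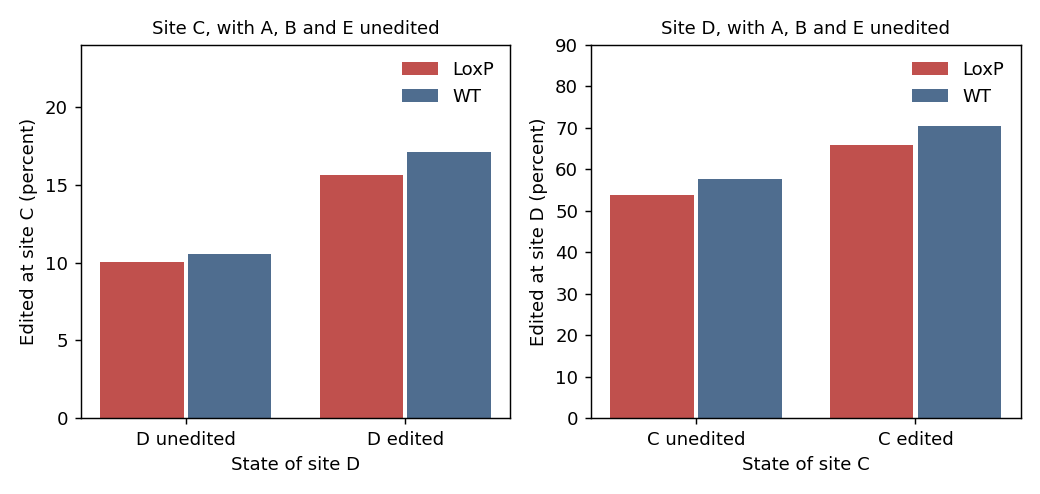
Percentage of RPKM edited at site C by the state of D (left panel) and at site D by the state of C (right panel), within the 4 core isoforms, for LoxP and WT. The level at C is 15.6% in LoxP and 17.1% in WT with D edited, above the 10.0% in LoxP and 10.6% in WT with D unedited, and the panels have different scales.

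The odds ratio of editing at C and D, which is 1 where the sites are edited independently, was 1.66 in LoxP and 1.74 in WT. If the sites were edited independently at the levels of the set, CD would make up 7.25% of the set in LoxP and 8.60% in WT. It made up 8.63% in LoxP and 10.2% in WT, 1.19 times the independent level in LoxP and 1.18 times in WT. CD thus exceeded the independent level by about the same factor in both genotypes, and the values per library that an interval for this factor needs were not analysed here. The ratios between neighbouring isoforms of the set give the same levels as steps. D was 1.16 times the unedited isoform in LoxP and 1.36 times in WT, and CD was 1.92 times C in LoxP and 2.37 times in WT. For the step at site C, C was 0.112 times the unedited isoform in LoxP and 0.118 times in WT, and CD was 0.185 times D in LoxP and 0.206 times in WT. The LoxP over WT quotient of these steps was 0.852 and 0.810 for the steps at D, and 0.943 and 0.896 for the steps at C.

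The same 2 by 2 set of C and D exists with A, B, E, AB, AE or ABE also edited, and with BE edited 2 of its 4 isoforms were not in the table. The excess of joint C and D editing did not keep 1 direction in these sets. With A edited, the odds ratio was 1.65 in LoxP and 1.13 in WT. With E edited, at the neighbouring base of site C in the same codon, it was 1.08 in LoxP and 0.458 in WT. With A and B edited it was 0.528 in LoxP and 1.03 in WT, and with B alone 0.716 in LoxP and 1.93 in WT. Over the 6 sets it ranged from 0.528 to 1.65 in LoxP, where 2 were above 1, and from 0.458 to 2.53 in WT, where 5 were above 1. The core set is by far the most abundant of them, with 1211063 RPKM in LoxP and 1247599 RPKM in WT, against 65149 RPKM in LoxP and 83251 RPKM in WT for the set with A. In the set with ABE the scarcest isoform was at 1.98 RPKM in LoxP and 64.95 RPKM in WT.

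**Figure D4:**
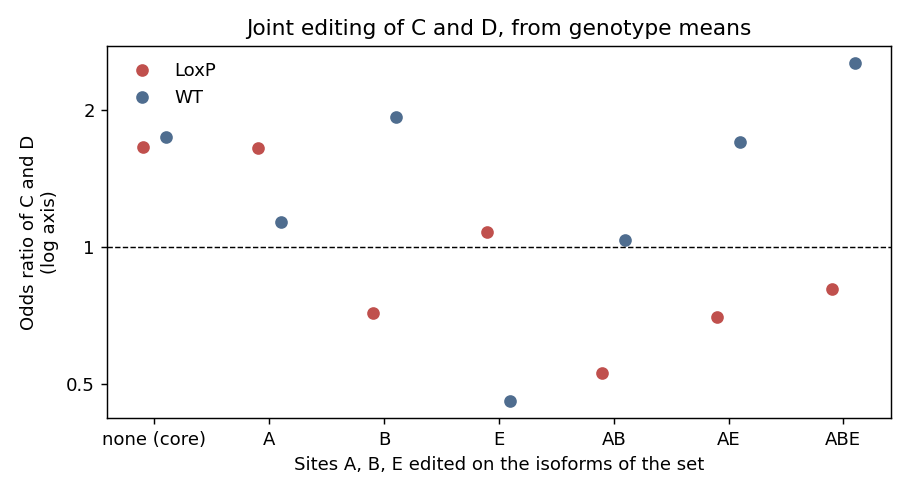
Odds ratio of editing at C and D (log axis) in the core set and in the sets with A, B, E, AB, AE or ABE also edited, for LoxP and WT, with the dashed line at 1. The core set stands at 1.66 in LoxP and 1.74 in WT, and the points of the other sets scatter on both sides of the line.

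Next, isoforms with exactly 1 further site on each of the 4 isoforms were compared, giving for each of the 9 further sites the isoform with that site as a percentage of it and its core isoform together. All 36 such isoforms were in the table. Site A, the first base of codon 157, was the most frequent addition to C, D and CD in both genotypes. It was edited on 12.2% of CD in LoxP and on 13.0% in WT, on 5.97% of C in LoxP and on 9.40% in WT, and on 5.66% of D in LoxP and on 6.69% in WT. On the molecules unedited at C and D it was lowest, at 2.66% in LoxP and 3.13% in WT. Editing at A alone was therefore least frequent on molecules with neither site and most frequent on those with both, in each genotype, and it was lower in LoxP on all 4.

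Site B, the third base of the same codon, was rarer. It was added to 0.281% of the unedited isoform in LoxP and 0.350% in WT, to 0.296% of C in LoxP and 0.546% in WT, and to 1.11% of D in LoxP and 1.18% in WT. On CD it was at 0.510% in LoxP and 2.03% in WT, a LoxP over WT ratio of 0.251, the lowest of the 36. As for A, all 4 values of B were lower in LoxP. Site E, the first base of the codon that site C lies in, did not follow A and B. It was added to 1.34% of CD in LoxP and 1.65% in WT, its lowest level in both genotypes, and to 3.28% of D in LoxP and 3.64% in WT. On the unedited isoform it was higher in LoxP, with 3.51% against 2.44% in WT, whereas on C it was lower, with 2.19% against 4.05% in WT. The isoforms EC and ECD carry a GGT codon for glycine at this position.

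The 6 minor positions 1, 2, 3, F, G and H were all at low levels on the 4 isoforms. The table holds no control for A to G calls made by PCR or sequencing error, so these levels were not told apart from such errors. Their 24 values lay between 0.0754% and 0.319% in LoxP (median, 0.154%) and between 0.0899% and 0.306% in WT (median, 0.144%), and 10 of the 24 were lower in LoxP. The medians by core isoform were close to each other, at 0.143% on the unedited isoform, 0.158% on C, 0.162% on D and 0.164% on CD in LoxP, and at 0.153%, 0.135%, 0.150% and 0.160% in WT. Site 2 on D, at 0.291% in LoxP and 0.306% in WT, was the highest value in WT, and site 2 on CD, at 0.319% in LoxP and 0.257% in WT, the highest in LoxP. Site H gave the lowest value of each genotype, that of LoxP on CD, at 0.0754% against 0.206% in WT, and that of WT on C, where it was at 0.0954% in LoxP and 0.0899% in WT. In LoxP these medians were lowest on the unedited isoform and highest on CD, over a narrow range. In WT the lowest was on C. Of the single minor sites in LoxP, only site 2 had its lowest level, 0.144%, on the unedited isoform and its highest on CD. Site F in LoxP was instead lowest on CD, at 0.107%, and highest on C, at 0.273%.

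**Figure D5:**
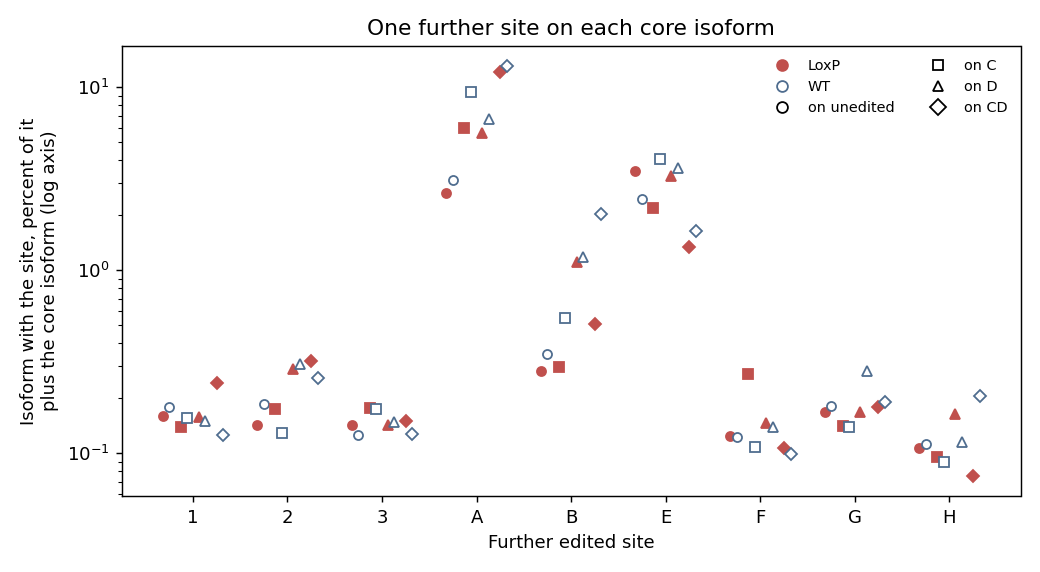
Percentage of molecules with exactly 1 further site (x axis) on each core isoform (marker shape), for LoxP (filled) and WT (open), on a log axis. Site A reaches 12.2% in LoxP and 13.0% in WT on CD, and the 6 minor positions lie between 0.0754% and 0.319% in LoxP and between 0.0899% and 0.306% in WT.

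Finally, all 112 isoforms were grouped by the state of C and D, whatever the other sites. Among the molecules unedited at both sites, which comprise 28 isoforms, the fully unedited isoform made up 92.3% in LoxP and 92.0% in WT. Isoform C made up 87.7% of its class of 19 isoforms in LoxP and 81.9% in WT, and isoform D 86.5% of its class of 38 in LoxP and 83.8% in WT. CD made up 81.0% of its class of 27 in LoxP and 75.0% in WT. The class with both sites edited thus held the largest proportion of molecules edited elsewhere, and this proportion was smaller in LoxP in all 4 classes. In RPKM, the other isoforms of the CD class summed to 24482 in LoxP and 42344 in WT, those of the D class to 87870 in LoxP and 119373 in WT, and those of the C class to 7605 in LoxP and 11837 in WT. Those of the class unedited at C and D summed to 40561 RPKM in LoxP and 39459 RPKM in WT.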

How the data were processed

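Amplicons of the receptor cDNA were made from 100 ng of choroid plexus RNA by 10 and then 15 PCR cycles, without molecular identifiers, and read on an Ion PGM. According to the methods, reads were mapped to the cDNAs of the full-length and truncated splice variants (the aligner is not given in the sources used here) and alignments were converted with SAMtools. Reads of each combination of 11 editing sites were counted by the authors at high mapping quality and converted to RPKM, dividing by cDNA length and all mapped reads of the library. The deposited RPKM are means over the 6 libraries of a genotype, for isoforms with at least 10 RPKM in either genotype. Means hide single libraries, and repeated reads of 1 molecule are counted separately. Further columns hold the authors' folds, p-values, adjusted p-values and percentages, made in S+ and R 3.3.2, and were not used.

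Each deposited sequence was checked against its label, and all 112 matched. Shares, ratios, odds ratios and conditional levels were computed from the 2 means with Python 3.11.15, and a fold of 1.2 set apart isoforms. The planned tests per library need values that were not analysed here. Functions were tested on simulated data. Coordinates, codons and exon Vb come from GENCODE M21 transcript ENSMUST00000096299.8 on GRCm38. The 4 isoforms and the isoforms named, those with 1 further site and the sets of C and D with A, B or E, were chosen with earlier results of these data known. Figures used matplotlib 3.10.9.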

Additional observations from a re-analysis of the deposited data

How the results depend on the processing

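For the ratios of the 4 isoforms, restriction to the known sites, a minimum of 100 RPKM and a pseudocount of 1 RPKM left every ratio within its printed digits. These settings could hardly move them, so this is no sign of stability. The lowest of the 4 isoforms' means was 53465 RPKM, for C in WT. Isoforms with a minor site held only 0.983% of the sum in LoxP and 1.04% in WT. The other scales moved the ratios. In RPKM as deposited the LoxP over WT ratios were 1.08 for the unedited isoform, 1.02 for C, 0.918 for D and 0.823 for CD, and as shares of the 4 isoforms 1.11, 1.05, 0.946 and 0.848. As shares of the edited isoforms, a setting chosen after seeing the data, they were 1.16 for C, 0.939 for CD and 1.05 for D, which turned its direction because the unedited isoform leaves the denominator. The share of the 4 isoforms was 88.4% in LoxP and 85.5% in WT at a minimum of 100 RPKM, and 89.2% and 86.3% with the known sites only. Over all isoforms the odds ratio of C and D was 1.68 in LoxP and 1.73 in WT, as with the known sites only (1.68 and 1.73), with C edited in 13.9% and 16.1% and D in 57.0% and 61.9%. At a fold of 1.5, 15 isoforms were higher in LoxP and 39 lower, against 23 and 48 at a fold of 1.2. At a minimum of 100 RPKM in either genotype, which 48 isoforms reached, 5 were higher and 20 lower. An isoform could again enter through its higher mean alone, so these counts keep the bias of the filter. Examples are CF, at 149 RPKM in LoxP and 58.1 RPKM in WT, and ABE, at 5.44 RPKM in LoxP and 859 RPKM in WT. No paired analysis was possible because the table holds genotype means without values per library. For the same reason leaving out replicates was not run.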

Other observations

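The 2 by 2 set of C and D could also be formed with each minor position read as edited, which was not told apart from PCR or sequencing error. The odds ratio of C and D was 2.90 in LoxP and 1.69 in WT with site 1, 1.495 and 2.11 with site 2, 1.41 and 1.08 with site 3, 0.550 and 1.42 with site F, 2.10 and 1.52 with site G, and 0.847 in LoxP and 3.90 in WT with site H. It was above 1 in 4 of the 6 sets in LoxP and in 6 of 6 in WT. The scarcest isoform of these sets was CH, at 51.9 RPKM in LoxP and 48.1 RPKM in WT, and the spread between libraries of these odds ratios is unknown.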
